A study of Mus musculus with 16 samples.

Results

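The genes described here are Trp53, which encodes the transcription factor p53, together with Mdm2, Cdkn1a and 7 further direct p53 targets: Ccng1, Sesn1, Phlda3, Aen, Trp53inp1, Ei24 and Zmat3. They were picked out by symbol among the 25105 genes of the deposited expression matrix, and all 10 were found. The values are RPKM, reads per kilobase of transcript scaled to the number of mapped reads, which account for length and so allow levels of different genes to be compared. Each of the 16 libraries came from primary mouse islets dispersed to single cells, all homozygous for floxed Grp78 (Hspa5), the gene of the main ER chaperone. Every culture was kept for 72 h in 15 mM glucose. There were 4 treatments with 4 libraries each: Ad-LacZ with DMSO (the control adenovirus), Ad-Cre with DMSO (the knockdown virus), Ad-LacZ with the pan-JNK inhibitor JNK-IN-8, and Ad-Cre with the same inhibitor, present from the start. The 4 libraries of a treatment came from the islet preparations F1, M1, M2 and F2, each of which gave 1 culture per treatment. The titles name 2 animals for each preparation. The RNA-seq was of bulk material, so the values are of whole mixed islet cultures. Which cell types took up the virus cannot be read from them.

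p53 is a stress-activated transcription factor that acts on the cell cycle, DNA repair and cell death. Its activity is set largely by the stability and modification of the protein, so that the Trp53 transcript is not a measure of p53 activity. MDM2 is the ubiquitin ligase that sends p53 for degradation and is itself a p53 target, which closes a feedback loop. Cdkn1a encodes p21, an inhibitor of cyclin-dependent kinases that restrains β-cell replication, and it also answers to signals other than p53. JNK is a stress kinase family that acts downstream of the IRE1 branch of the unfolded protein response, and it can phosphorylate p53. The comparisons ask what the virus did to the p53 genes, whether JNK inhibition undid it, and whether p21 moved with or apart from the others.

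Promoters of Cdkn1a, Mdm2 and Trp53 are shown because these genes anchor the comparisons. They are the target with the largest change among the genes listed above, the feedback target and p53 itself. The 250 bases before a RefSeq start, for Cdkn1a the more upstream of those matched, are given in transcript orientation on GRCm38.p6. Capitals mark exact matches to the 10-base unit of the p53 consensus binding site, a pattern that is its own reverse complement, so that a single search covers both strands. The Cdkn1a window is chr17:29090729-29090978 (plus strand), the Mdm2 window is chr10:117710759-117711008 (minus strand) and the Trp53 window is chr11:69580109-69580358 (plus strand).
Cdkn1a: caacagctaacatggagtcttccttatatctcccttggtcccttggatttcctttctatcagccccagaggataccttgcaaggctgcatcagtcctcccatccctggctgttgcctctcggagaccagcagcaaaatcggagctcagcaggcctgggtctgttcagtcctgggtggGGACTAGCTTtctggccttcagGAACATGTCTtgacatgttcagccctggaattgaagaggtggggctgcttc
Mdm2: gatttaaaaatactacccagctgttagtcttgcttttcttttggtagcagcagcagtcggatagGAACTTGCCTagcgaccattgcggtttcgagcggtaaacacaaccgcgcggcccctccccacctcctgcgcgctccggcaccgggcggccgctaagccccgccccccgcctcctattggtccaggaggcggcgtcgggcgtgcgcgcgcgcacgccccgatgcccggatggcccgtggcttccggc
Trp53: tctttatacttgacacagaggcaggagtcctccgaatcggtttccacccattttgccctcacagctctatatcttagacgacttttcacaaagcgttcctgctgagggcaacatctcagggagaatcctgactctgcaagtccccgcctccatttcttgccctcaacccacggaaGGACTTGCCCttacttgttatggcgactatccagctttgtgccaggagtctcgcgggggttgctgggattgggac
In GENCODE M21 (GRCm38), Cdkn1a spans 29090976 to 29100727 of chromosome 17, Mdm2 spans 117688875 to 117710758 of chromosome 10 and Trp53 spans 69580359 to 69591873 of chromosome 11, so these windows lie at the 5′ ends of the genes. Promoter windows of 300 bases (250 before to 50 after the start) were matched for 8 of the 10 genes; Trp53inp1 and Zmat3 had none in the table used. The 10-base unit was present in 7 of the 8, and Phlda3 had no match in its window. Among all 27025 genes with a window, 9.55% held the unit. A full element, meaning 2 units at most 13 bases apart, occurred in Cdkn1a alone of the 8 and in 0.074% of all genes. The units in Cdkn1a started 73 and 51 bases before the start used above. The other Cdkn1a window, before a start further downstream (chr17:29093519-29093768, plus strand), held no unit. A gene was counted if any of its windows held a match. Only these windows were searched, so p53 elements further upstream or elsewhere in the genes were not read. A match of letters is a description of the window, not evidence of binding.

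The targeted gene was read first. Hspa5 was at 478 (F1), 483 (M1), 395 (M2) and 396 RPKM (F2) with Ad-LacZ and at 1107, 1114, 1237 and 1598 RPKM in the libraries labelled Ad-Cre. Its transcript level was therefore higher, not lower, in every library labelled Ad-Cre (log2 fold change 1.5 ± 0.18 SE, adjusted p = 0.00224, limma), against the knockdown the label names. A value for the whole gene does not separate floxed from other exons, so the label could not be checked at the deleted part. By qPCR in parallel aliquots of these samples, the study reported knockdown of Grp78 and a compensatory rise of other ER chaperones. Those qPCR values were not analysed here. All directions below are for libraries as labelled. The transcription factor gene Jun, a known JNK target that regulates its own promoter, served as a check of the inhibitor. Jun was at 17.3, 16.6, 31.2 and 22.5 RPKM with Ad-Cre and at 8.16, 7.18, 13.1 and 9.87 RPKM with Ad-Cre and inhibitor, lower in 4 of 4 preparations (-0.96 ± 0.19, adjusted p = 0.209, and 0.00956 when preparation entered as a block). With Ad-LacZ the change of Jun was -1.08 ± 0.22, also lower in 4 of 4 preparations (adjusted p = 0.159, block 0.0353). Between Ad-Cre and Ad-LacZ without inhibitor, Jun differed by 0.05 on the log2 scale, higher in 3 preparations and lower in F2.

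Depth, read from the steps between low values, was 14100000 to 25300000 reads in 15 libraries and 7600000 reads in the F2 library with Ad-Cre and inhibitor, the only library whose column name carries a different prefix from the other 15. Every p53 gene had at least 140 estimated reads in every library (Sesn1 in that F2 library), and Cdkn1a at least 2728. Islet hormone and β-cell genes were abundant in all libraries, with 8 β-cell markers summing to 33139 to 84105 RPKM, and 5 acinar markers summing to at most 10.6 RPKM. Several cell-type lists shifted with treatment. With Ad-Cre all 8 β-cell markers had values below those with Ad-LacZ (median log2 fold change -0.80, 1 past the test and 5 with the block). All 6 macrophage markers had values above (median 0.70, 2 past the test and 5 with the block), with sums of 51.4 to 57.1 RPKM with Ad-LacZ and 57.1 to 110.1 RPKM with Ad-Cre. Values were also above for 4 of 4 tested stellate cell or fibroblast markers (median 1.04) and 5 of 5 endothelial markers (median 0.29), with 0 past the test with or without the block. With the inhibitor in Ad-LacZ cultures all 6 macrophage markers again had values above those without (median 0.72, 2 past the test and 1 with the block), as did 4 of 4 tested stellate cell or fibroblast markers (median 1.82, 0 and 1) and 2 of 2 tested duct markers (median 1.05, 0 and 1). With the inhibitor in Ad-Cre cultures 4 of 4 α-cell markers (median 0.41, 0 with or without the block) and 2 of 2 δ-cell markers (median 0.82, 0 and 1) had values above. There 4 of 5 tested fibroblast markers had values below (median -0.68, 0 with or without the block). With the inhibitor in both arms, values with Ad-Cre were below for 5 of 5 tested fibroblast markers (median -1.23, 0 and 4) and 7 of 8 β-cell markers (median -0.84, 3 and 5 lower past the test). In bulk RNA, fewer cells of a type and less RNA per cell cannot be told apart. Preparation M2 stood apart: its sum of 6 stellate cell or fibroblast markers was 105 RPKM with Ad-LacZ, 676 with Ad-Cre, 507 with Ad-LacZ and inhibitor and 145 with Ad-Cre and inhibitor, while F1 and M1 stayed between 21.8 and 104 RPKM and F2 between 54.2 and 317 RPKM. The part of these cell-type shifts in the results was not tested.

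At baseline the p53 genes spanned a wide range of levels. With Ad-LacZ, Ccng1 had the highest mean, 97.2 ± 21.5 RPKM (SD, n = 4), followed by Cdkn1a at 64.6 ± 22.8 RPKM. These ranges overlapped, and their means stood above those of 97.3% and 95.4% of the 12274 genes above 1 RPKM in at least 4 libraries. Mdm2 (21.2 ± 5.75 RPKM), Ei24 (19.8 ± 2.18) and Phlda3 (15.3 ± 8.48) formed an intermediate tier whose neighbours overlapped. Trp53inp1 (12.3 ± 3.15), Trp53 (9.42 ± 1.76), Aen (9.33 ± 2.66), Sesn1 (7.65 ± 0.85) and Zmat3 (7.12 ± 1.87) were lowest, again with overlapping neighbours. With Ad-Cre the order changed at both ends. Cdkn1a became the highest at 216 ± 33.2 RPKM, its lowest library (171 RPKM) above the highest of Ccng1 (149 RPKM). Sesn1 became the lowest at 4.91 ± 0.38 RPKM, its highest library (5.22 RPKM) below the lowest of Zmat3 (5.5 RPKM).

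**Figure D1:**
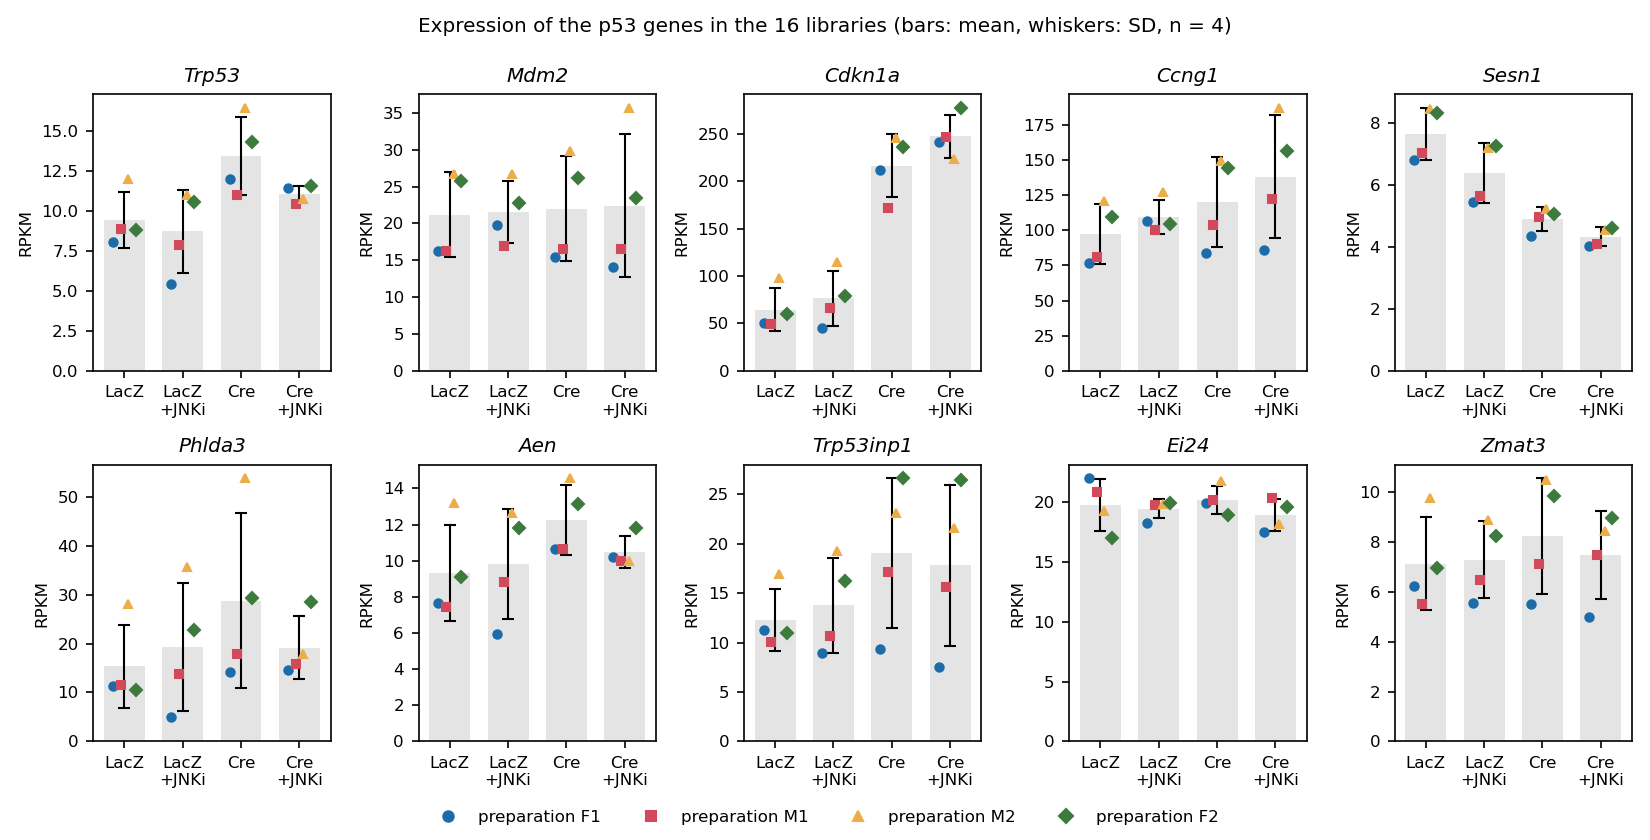
RPKM of the 10 genes by treatment, with a point for each preparation, bars for the mean and whiskers for the SD (n = 4). The 8 Ad-Cre libraries of Cdkn1a sit between 171 and 278 RPKM, all above the 8 Ad-LacZ libraries (45.3 to 115 RPKM), whereas those of Mdm2, Ei24 and Zmat3 overlap between all treatments.

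Ad-Cre raised p21 more than 3-fold, raised Trp53 by less, and lowered Sesn1, while the differences of the other 7 genes did not pass the test without the block. In limma with Benjamini-Hochberg adjustment over all genes, 3 of the 10 passed, 2 higher (Cdkn1a and Trp53) and 1 lower (Sesn1), where 16.6% of the 11590 genes tested passed (6.72% higher and 9.84% lower). Once the fit included the preparation as a block, 5 of 10 passed (Phlda3 and Aen were added, both higher), against 34.3% of all genes (15.1% higher and 19.2% lower). The median log2 fold change of the 10 was 0.32, beside -0.02 for all genes tested. By the criteria of the study for the virus, an unadjusted p under 0.05 and a fold change above 1.5, 1 of 10 passed (Cdkn1a), beside 10.2% of all genes, and 2 with the block (Phlda3 was added), beside 11.4%.

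Trp53 itself rose modestly. It was at 8.02, 8.89, 12.0 and 8.77 RPKM with Ad-LacZ (F1, M1, M2 and F2 in this and later lists) and at 12.0, 11.0, 16.4 and 14.3 RPKM with Ad-Cre. Every preparation was higher with Ad-Cre, and after scaling the groups did not overlap, as for 24.9% of all genes, whereas in RPKM as deposited M2 with Ad-LacZ lay slightly above F1 and M1 with Ad-Cre. This gave a log2 fold change of 0.45 ± 0.10 (adjusted p = 0.0219). The call was lost without F1 (adjusted p = 0.106), M1 (0.0788) or F2 (0.14) and in RPKM as deposited (0.0642), with log2 fold changes of 0.41 to 0.50 in these fits.

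Mdm2, the feedback target, showed no detectable difference. It was at 16.3, 16.2, 26.7 and 25.7 RPKM with Ad-LacZ and at 15.4, 16.6, 29.9 and 26.1 RPKM with Ad-Cre. The preparations differed from each other far more than the treatments did, with M2 and F2 above F1 and M1 in both. The log2 fold change was 0.02 ± 0.19 (95% interval -0.41 to 0.45, adjusted p = 0.961), so that a change of up to 0.45 in either direction was not detectable without the block. With the block the standard error was 0.09 and the call was the same (adjusted p = 0.896).

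Cdkn1a rose in every preparation. It was at 50.7, 49.5, 98.1 and 60.1 RPKM with Ad-LacZ and at 212, 171, 246 and 236 RPKM with Ad-Cre. The lowest Ad-Cre library was 1.75-fold above the highest Ad-LacZ library, and the ratio within a preparation was 4.17 (F1), 3.46 (M1), 2.50 (M2) and 3.93 (F2). On the log2 scale the change was 1.75 ± 0.18 (adjusted p = 0.00135), the 26th highest of 11590 genes, and the exact two-sided permutation p was 0.0286, the smallest that 4 against 4 can give. It passed the test under every alternative run, with values of 1.54 (quantile normalization) to 1.91 (without M2). M2, which had the smallest ratio, had the highest level of Cdkn1a with Ad-LacZ and the fibroblast sums given above.

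Ccng1, whose product cyclin G1 recruits the phosphatase PP2A to MDM2, differed less. It was at 76.9, 81.3, 121 and 109.5 RPKM with Ad-LacZ and at 83.6, 104, 149 and 144 RPKM with Ad-Cre. Each preparation was higher with Ad-Cre, by 0.17 to 0.38 on the log2 scale, while the groups overlapped widely. Its log2 fold change was 0.27 ± 0.17 (adjusted p = 0.296, block 0.0612). Sesn1, whose product Sestrin 1 restrains mTORC1 signalling under stress, went the other way. It was at 6.81, 7.03, 8.45 and 8.32 RPKM with Ad-LacZ and at 4.37, 4.98, 5.22 and 5.08 RPKM with Ad-Cre. All 4 Ad-Cre libraries lay below all 4 Ad-LacZ libraries, and the log2 fold change was -0.56 ± 0.09 (adjusted p = 0.00621). Without F2 the value was -0.51 and the call was lost (adjusted p = 0.0692).

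The targets tied to survival and cell death were mixed. Phlda3, an inhibitor of Akt that limits islet cell survival, was at 11.3, 11.5, 28.1 and 10.6 RPKM with Ad-LacZ and at 14.3, 17.9, 53.8 and 29.2 RPKM with Ad-Cre. It was higher in 4 of 4 preparations, by 0.36 to 1.27, but the spread between preparations was wide. Its log2 fold change was 0.79 ± 0.36 (adjusted p = 0.160), and with the block it passed (SE 0.14, adjusted p = 0.00611). Aen, an apoptosis-enhancing nuclease, was at 7.67, 7.42, 13.2 and 9.09 RPKM with Ad-LacZ and at 10.7, 10.7, 14.6 and 13.1 RPKM with Ad-Cre. It too was higher in 4 of 4 preparations, with a log2 fold change of 0.36 ± 0.13 (adjusted p = 0.0832, block 0.0246). Trp53inp1, a stress protein that promotes p53-dependent cell death, was at 11.3, 10.0, 17.0 and 11.0 RPKM with Ad-LacZ and at 9.35, 17.2, 23.1 and 26.6 RPKM with Ad-Cre. Preparation F1 went down and the other 3 went up, and the log2 fold change was 0.51 ± 0.24 (adjusted p = 0.172, block 0.0667).

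Ei24, an ER membrane protein involved in autophagy, and Zmat3, an RNA-binding protein that regulates splicing, showed no detectable difference. Ei24 lay between 17.0 and 22.0 RPKM in both groups, with a log2 fold change of 0.02 ± 0.13 (95% interval -0.28 to 0.31). Zmat3 was at 5.51 to 9.78 RPKM with Ad-LacZ and at 5.5 to 10.5 RPKM with Ad-Cre, with a log2 fold change of 0.16 ± 0.15 (95% interval -0.19 to 0.51). Neither passed with the block (adjusted p = 0.900 and 0.265).

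**Figure D2:**
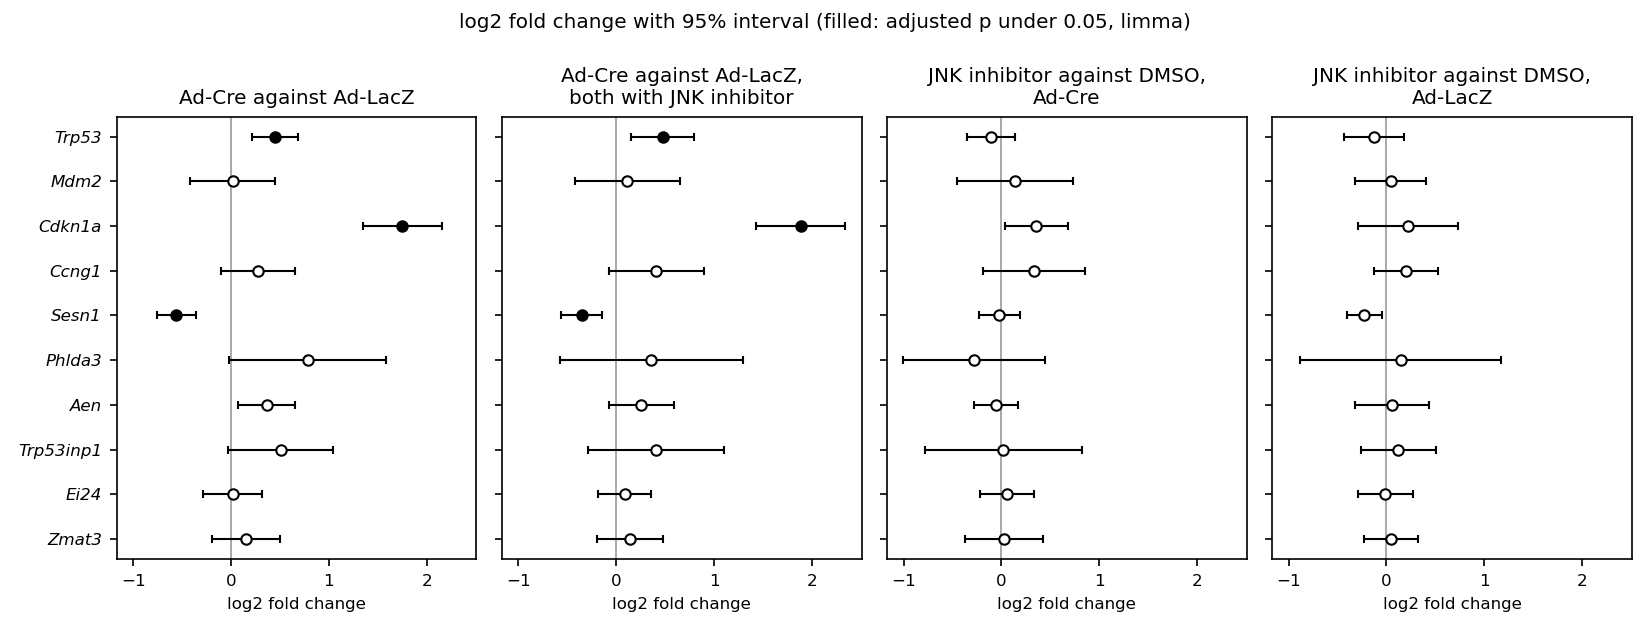
log2 fold change (x axis) with 95% interval for the 10 genes in 4 comparisons, filled where the adjusted p was under 0.05 in limma without the block. Cdkn1a stands at 1.75 and 1.89 in the virus comparisons and at 0.36 and 0.22 in the inhibitor comparisons, in which no gene is filled.

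In Ad-Cre cultures, the mean level of Cdkn1a was not lower with the JNK inhibitor than without it, and none of the 10 genes passed the test with or without the block. Across all 11503 genes tested, 0 passed in limma after adjustment (940, or 8.17%, had an unadjusted p under 0.05), and 739 (6.42%) in the blocked fit. The median log2 fold change of the 10 was 0.02, beside -0.01 for all genes. By the criteria of the study for the inhibitor, an unadjusted p under 0.05 and a fold change above 1.2, 1 of 10 passed (Cdkn1a, higher), beside 7.92% of all genes, and 2 with the block (Ccng1 was added, also higher), beside 19.1%. The direction of the unblocked calls depended on the scaling: 624 genes were higher and 287 lower here, while in RPKM as deposited 307 went up and 1156 down, with a median of -0.14 over all genes.

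Cdkn1a was at 212, 171, 246 and 236 RPKM with Ad-Cre and at 241, 246, 224 and 278 RPKM with Ad-Cre and inhibitor. After scaling it was higher with the inhibitor in 4 of 4 preparations, by 0.16 (M2) to 0.64 (M1), and the groups did not overlap, as for 5.9% of all genes. The change of Cdkn1a was 0.36 ± 0.14 on the log2 scale (95% interval 0.03 to 0.68, unadjusted p = 0.0340, adjusted p = 0.556, block 0.0845). In RPKM as deposited the groups overlapped, M2 was lower with the inhibitor (ratio 0.912), and the log2 fold change was 0.20. With quantile normalization it was 0.08. No alternative gave a value below 0 for Cdkn1a.

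Ccng1 was the other gene that was higher in 4 of 4 preparations, by 0.13 (F1) to 0.62 (M2) on the scaled log2 values. It was at 83.6, 104, 149 and 144 RPKM with Ad-Cre and at 86.1, 122, 187 and 157 RPKM with the inhibitor added. The groups overlapped, and the log2 fold change was 0.33 ± 0.23 (95% interval -0.18 to 0.85, adjusted p = 0.787, block 0.0973).

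Trp53 was at 12.0, 11.0, 16.4 and 14.3 RPKM with Ad-Cre and at 11.4, 10.4, 10.7 and 11.6 RPKM with the inhibitor added. M2 and F2 were lower after scaling and F1 and M1 were not, for a log2 fold change of -0.10 ± 0.11 (95% interval -0.35 to 0.14). Mdm2 was at 15.4, 16.6, 29.9 and 26.1 RPKM and at 14.1, 16.5, 35.7 and 23.4 RPKM, and its change of 0.14 ± 0.26 (95% interval -0.45 to 0.73) came mostly from M2 (0.54).

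Phlda3 had the lowest value of the 10, -0.28 ± 0.32 (95% interval -1.0 to 0.44, adjusted p = 0.897), and it rested on 1 preparation. In M2 it was at 53.8 RPKM with Ad-Cre and at 17.8 RPKM with the inhibitor added. The other preparations were at 14.3, 17.9 and 29.2 RPKM without and at 14.5, 15.8 and 28.6 RPKM with the inhibitor. Without M2 the log2 fold change was 0.05. In the same M2 pair the fibroblast sum was 676 and 145 RPKM and the α-cell sum 13150 and 26529 RPKM; the part of these in the Phlda3 value was not tested. Aen, Trp53inp1, Zmat3, Ei24 and Sesn1 had log2 fold changes of -0.05 to 0.06. The 95% intervals of Aen (-0.28 to 0.17) and Sesn1 (-0.23 to 0.19) were narrow, and that of Trp53inp1 (-0.78 to 0.82) was wide.

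In Ad-LacZ cultures 0 of the 10 genes passed with the inhibitor, with or without the block, where 22 of 11657 genes (0.189%) passed without the block and 0.335% with it. Cdkn1a was at 50.7, 49.5, 98.1 and 60.1 RPKM without and at 45.3, 66.3, 115 and 79.2 RPKM with the inhibitor, for a log2 fold change of 0.22 ± 0.23 (95% interval -0.29 to 0.73). F1 was level after scaling and the other 3 preparations were higher. Sesn1 was lower in 4 of 4 preparations, at 5.45, 5.65, 7.19 and 7.26 RPKM with the inhibitor beside 6.81, 7.03, 8.45 and 8.32 RPKM without. Its scaled values did not overlap between groups, as for 4.44% of all genes, and the log2 fold change was -0.23 ± 0.08 (unadjusted p = 0.0179, adjusted p = 0.589, block 0.256). The remaining 8 genes lay between -0.13 (Trp53) and 0.20 (Ccng1).

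With the inhibitor present in both arms, the difference between Ad-Cre and Ad-LacZ had the same signs, but its size differed by gene. Phlda3 was at 0.36 (M2 at -0.71), beside 0.79 without inhibitor, and Aen at 0.26 beside 0.36. Trp53inp1 (0.41) and Zmat3 (0.14) were also below their values without inhibitor. Ccng1 (0.41), Mdm2 (0.11) and Ei24 (0.09) were above theirs. Cdkn1a was at 45.3, 66.3, 115 and 79.2 RPKM with Ad-LacZ and inhibitor and at 241, 246, 224 and 278 RPKM with Ad-Cre and inhibitor, a log2 fold change of 1.89 ± 0.20 (adjusted p = 0.00068). No Ad-Cre library overlapped an Ad-LacZ library, as for 26.1% of all genes. Trp53 (0.48 ± 0.14, adjusted p = 0.0428, block 0.0667) and Sesn1 (-0.35 ± 0.09, adjusted p = 0.0267, block 0.0484) also passed, for 3 of 10, beside 20.7% of the 11598 genes tested. With the block 2 of 10 passed, beside 24.8%. The call of Trp53 was lost on leaving out any preparation (adjusted p = 0.129 without F1, 0.207 without M1 and 0.138 without F2) except M2, and that of Sesn1 on leaving out any of the 4 (0.0525 to 0.202). Trp53 also lost its call with no filter (0.0630), with a filter at 0.1 RPKM (0.0523) and in RPKM as deposited (log2 fold change 0.35, 0.211), and Sesn1 lost its call under quantile normalization (log2 fold change -0.27, 0.0668). Without the shallow F2 library alone both were lost (0.0874 and 0.0739). The virus comparisons with and without inhibitor have no library in common.

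The interaction of virus and inhibitor, which asks whether the inhibitor acted differently under Ad-Cre, was fitted on all 16 libraries. None of the 10 genes and 0 of 12274 genes passed the adjusted test, blocked or not (408 genes, 3.32%, had an unadjusted p under 0.05). For Cdkn1a the interaction was 0.13 ± 0.27 (95% interval -0.44 to 0.71), an interval that leaves room for a virus effect smaller by 0.44 under the inhibitor, beside the effect of 1.75 without it. Among the 10, Sesn1 had the lowest unadjusted p in limma, with an interaction of 0.21 ± 0.10. Phlda3 had the widest interval, -1.70 to 0.85.

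Whether p21 moved with or apart from the other p53 genes was read by setting the log2 change of each gene against that of Cdkn1a in the same preparation, a difference that does not depend on scaling except through the pseudocount. Under the virus p21 moved apart from these genes: all 9 changed less than Cdkn1a in 4 of 4 preparations, with mean differences from -0.97 (Phlda3) to -2.31 (Sesn1). The same held for 98.1% of all 11589 genes, since few genes rose as far as Cdkn1a. For 8 of the 9 the groups did not overlap on this difference, beside 95.4% of all genes (exact two-sided permutation p = 0.0286 each, unadjusted and the smallest that 4 against 4 can give). Phlda3 was the exception (exact p = 0.0571), with -0.40 in M2 and -0.57 in F2 beside -1.73 in F1 and -1.17 in M1. With the inhibitor in both arms all 9 were again below Cdkn1a in 4 of 4 preparations (-1.41 to -2.24), beside 97.7% of 11597 genes, and the groups did not overlap for any of the 9, beside 94.6%. The separation of p21 from these 9 genes was therefore shared with nearly every gene in these cultures. It did not extend to every p53 target: Gtse1, from a further list read below, rose about as far as Cdkn1a with Ad-Cre. A model fitted to the differences from Cdkn1a over all genes called 9 of 9, beside 99.3% of genes. Its p-values are too small, because the noise of Cdkn1a is shared by every difference.

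Under the inhibitor in Ad-Cre cultures the separation was small. Trp53, Sesn1, Phlda3, Aen, Ei24 and Zmat3 were below Cdkn1a in 4 of 4 preparations, 6 of 9 genes beside 54.5% of all genes, whereas Mdm2, Ccng1 and Trp53inp1 were below it in 3 and above it in M2. Mean differences ran from -0.02 (Ccng1) to -0.64 (Phlda3). The groups did not overlap for Trp53 (-0.46), Aen (-0.41) and Sesn1 (-0.38), 3 of 9 genes beside 21.8% of all genes, each with an exact two-sided permutation p of 0.0286. In the model over all genes 0 of the 9 passed, beside 0.0956% of 11502 genes, and 4 of 9 with the block (Trp53, Phlda3, Aen and Sesn1), beside 52.5%. In Ad-LacZ cultures 4 of the 9 were below Cdkn1a in 4 of 4 preparations under the inhibitor, beside 33.4% of all genes, and none was free of overlap, beside 1.2%. These exact tests were run for 9 genes in 4 comparisons.

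**Figure D3:**
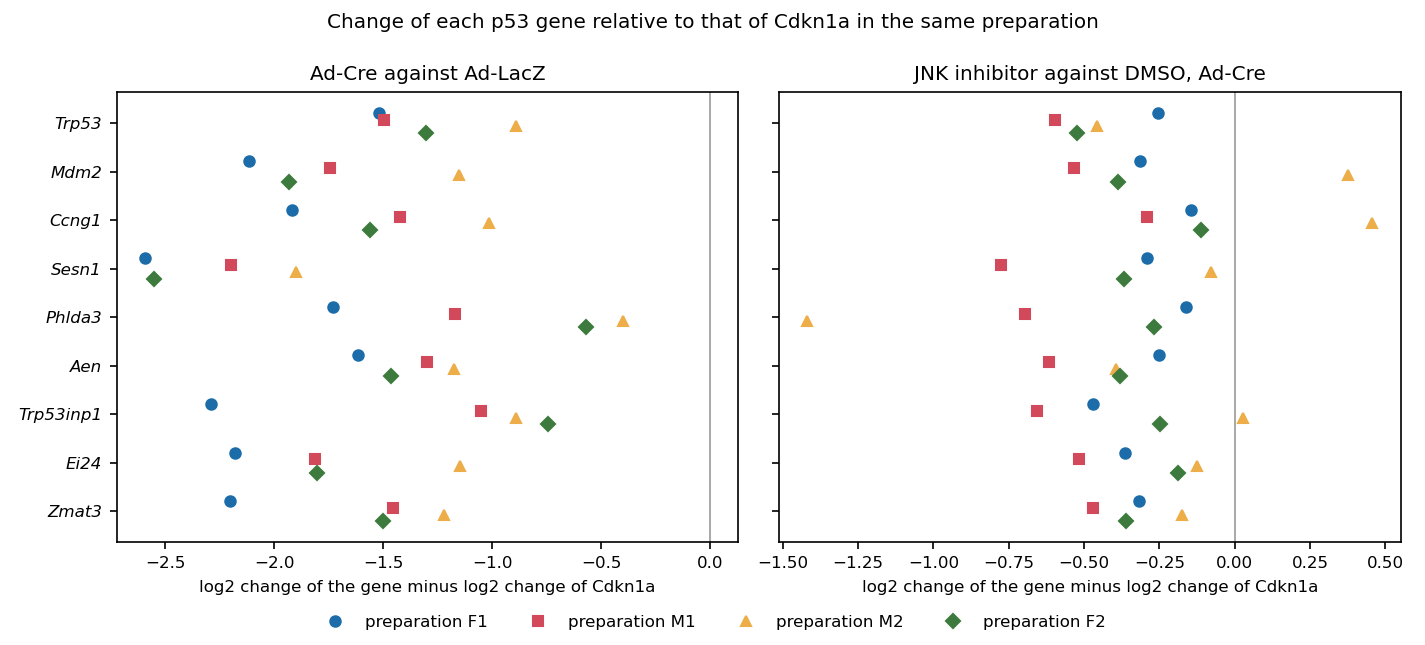
log2 change of each gene minus that of Cdkn1a (x axis), by preparation, for the virus (left) and for the inhibitor in Ad-Cre cultures (right). On the left every point lies below 0, from -2.59 to -0.40. On the right most points lie between -0.78 and 0, M2 is above 0 for Mdm2, Ccng1 and Trp53inp1, and M2 is at -1.42 for Phlda3.

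The sources of variation differed between the genes. Over the 16 libraries, the virus accounted for 91.3% of the sum of squares of Cdkn1a, 83.9% of that of Sesn1 and 70.4% of that of Trp53, beside a median of 22.2% over all 12274 genes. The preparation accounted for 75.7% of the variation of Ei24, 66.2% of Mdm2, 61.7% of Zmat3, 49.4% of Phlda3 and 48.9% of Trp53inp1, beside a median of 25.8%. Aen (45.8% virus, 22.3% preparation) and Ccng1 (27.1% and 26.5%) lay between. The inhibitor accounted for 16.5% of the variation of Ccng1 and for 6.28% or less of the other 9, with a median of 3.09% over all genes. These shares describe 16 libraries and carry no test.

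**Figure D4:**
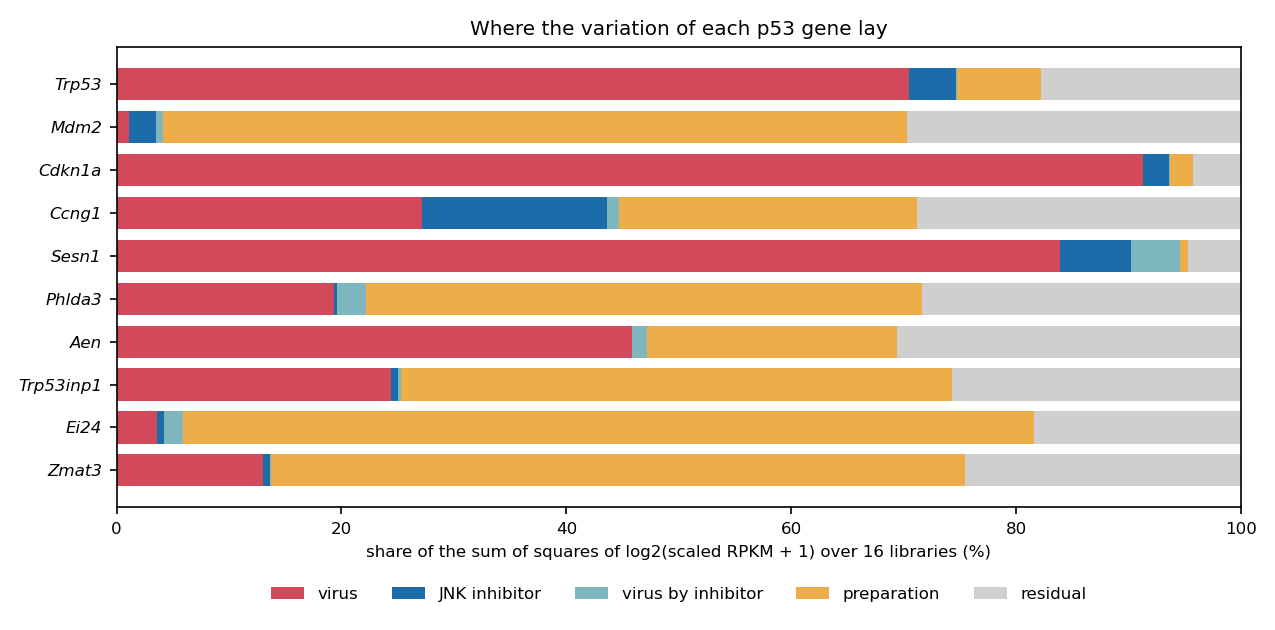
Share of the sum of squares of log2(scaled RPKM + 1) over 16 libraries (x axis, %) that went with virus, inhibitor, their interaction, preparation and residual, for the 10 genes. The virus share is 91.3% for Cdkn1a and 1.15% for Mdm2, and the preparation share is 1.96% and 66.2%.

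The genes whose pattern over the 16 libraries was most like that of Cdkn1a were Gtse1 (Pearson r = 0.986), Tmem43 (0.980), Rrp9 (0.976), P3h1 (0.973) and Lap3 (0.973), among 12273 genes. For Mdm2 they were Zbtb1 (0.959), Mbnl2 (0.942), Ccp110 (0.932), Haus3 (0.925) and Sh3bp5 (0.919). The 2 lists have no gene in common. For Cdkn1a the libraries fall into clusters by virus, so these coefficients describe mostly that contrast.

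Further members of the pathway were read from lists of other direct p53 targets and of p53 regulators. Of 38 other targets 36 were tested for the virus, and 7 rose and 1 fell, beside 6.72% and 9.84% of all genes. With the block 18 rose and 4 fell, beside 15.1% and 19.2%. Their median log2 fold change was 0.31, beside -0.02 for all genes. Gtse1, whose product binds p53 and p21, rose by 1.81 ± 0.19 (adjusted p = 0.00135), from 1.76, 1.96, 4.01 and 2.17 RPKM to 9.79, 7.40, 13.5 and 14.7 RPKM. All 4 Ad-Cre libraries were above all 4 Ad-LacZ libraries. The stress cytokine gene Gdf15 rose by 1.5 ± 0.23 and Ppp1r15a, whose product GADD34 directs dephosphorylation of eIF2α, by 1.33 ± 0.15. Bbc3, the gene of the BH3-only protein PUMA, rose by 0.78 ± 0.16, Bloc1s2 by 0.77 ± 0.15, the cell cycle inhibitor Sfn by 0.68 ± 0.14 and Gadd45a by 0.56 ± 0.15. The ubiquitin ligase subunit Fbxw7 fell by 0.56 on the log2 scale (SE 0.15). The adjusted p of these 8 was 0.00135 to 0.0362. Gdf15, Ppp1r15a and Gadd45a are known to answer to other stress pathways as well as to p53. Bax, the pore-forming apoptosis effector, had a value of 0.53 ± 0.16 and passed with the block only (adjusted p = 0.0534, block 0.00775).

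Of 22 regulators 16 were tested, with a median of -0.19, and 3 passed, beside 16.6% of all genes. Daxx (0.40 ± 0.12, adjusted p = 0.0497) and Ppp1r13l, whose product iASPP inhibits p53 (0.52 ± 0.12, adjusted p = 0.0224), rose. The coactivator gene Ep300 fell by 0.47 (SE 0.11, adjusted p = 0.0200). With the block 2 rose and 5 fell, a total of 7 beside 34.3% of all genes, the added ones being Atm (-0.37), Ppm1d (-0.28), Prkdc (-0.41) and Hipk2 (-0.51), 3 of them kinases that act on p53 and Ppm1d a phosphatase that reverses such marks. Mdm4, the partner of MDM2, had a value of 0.05 ± 0.22. The Rfwd2 entry of the list was read under its current symbol Cop1.

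A further list held Atf3, Bak1, Trib3, Sdc1 and Ier5, which the study measured by qPCR as p53 targets together with Phlda3, described above. In that qPCR the study reported lower abundance of p53 targets with JNK inhibition. From RNA-seq it also reported the p53 gene set among those lowered by JNK inhibition, and by staining less nuclear phospho-p53. It stated that p21 was induced by the knockdown but not affected by JNK inhibition, with data not shown. No gene set test was run here. With Ad-Cre, 4 of the 5 rose in the RNA-seq, beside 6.72% of all genes: Sdc1 (1.33 ± 0.27), Trib3 (1.32 ± 0.28), Atf3 (1.29 ± 0.24) and Ier5 (0.52 ± 0.15), with adjusted p of 0.0109 to 0.0460. Bak1 had a value of 0.30 ± 0.17 (adjusted p = 0.264). The study chose these genes on related cultures, so their direction is not independent evidence. With the inhibitor in Ad-Cre cultures none of the 5 passed, with or without the block, and all 5 had values below 0, from -0.11 (Bak1) to -0.33 (Trib3). Preparation M2 carried much of this, at -1.28 for Sdc1, -1.08 for Trib3 and -0.96 for Ier5. Without M2 the means over the other 3 preparations were 0.10, -0.07 and -0.10, beside -0.15 for Atf3 and -0.05 for Bak1. M2 is the preparation whose fibroblast sum was 676 RPKM without and 145 RPKM with the inhibitor in these cultures, and its part in these values was not tested. With the inhibitor in both arms, 2 of the 5 were called higher with Ad-Cre, beside 20.7% of all genes called in either direction. The median virus value of the 5 was 0.39, beside 1.29 without inhibitor. Values were 1.17 for Trib3, 1.14 for Atf3, 0.39 for Ier5, 0.27 for Sdc1 and -0.01 for Bak1. For the interaction 0 of the 5 passed, with or without the block, and all 5 values were below 0. Atf3 and Trib3 are also known targets of the ATF4 branch of the unfolded protein response.

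Among the other direct targets the inhibitor in Ad-Cre cultures gave 0 of 36 past the test, with a median of 0.09, and 3 with the block, all higher, beside 6.42% of all genes. They were Gtse1 (0.51 ± 0.18, block adjusted p = 0.0427), Rps27l (0.49 ± 0.15, block 0.0277) and Ppp1r15a (0.43 ± 0.20, block 0.0265). Gtse1 was at 9.79, 7.40, 13.5 and 14.7 RPKM with Ad-Cre and at 13.4, 12.5, 12.9 and 19.8 RPKM with the inhibitor added. As deposited, it was higher in F1, M1 and F2 and lower in M2, the same signs as Cdkn1a. With the inhibitor in both arms, 8 of the 36 were called higher with Ad-Cre and 2 lower, beside 1176 and 1219 of 11598 genes. The median virus value of the 36 was 0.17, beside 0.31 without inhibitor. For the inhibitor in Ad-Cre cultures, none of the 16 regulators tested passed with or without the block, and their median was -0.01.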

How the data were processed

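RNA-seq was performed on 16 libraries of dispersed mouse islets, 4 treatments by 4 preparations, as labelled by treatment and preparation. The authors deposited 1 matrix of RPKM for 25105 genes (4262 at 0 in all 16 libraries), made from paired-end reads aligned to the mouse genome (GRCm38 per the submitters' processing notes); the step from reads to RPKM and the annotation are not given in the sources used here. A further 3 value columns without a matching label were not used. Depth was estimated from the steps between low RPKM values with GENCODE M21 exon lengths, at 7600000 to 25300000 reads; because the deposited values are RPKM, no count model was fitted.

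RPKM values were scaled by trimmed means (trim 30% of ratios and 5% of levels; factors 0.872 to 1.17 over 16 libraries), and log2(RPKM + 1) was tested with limma 3.58.1 (R 4.3.3; empirical Bayes with trend, two-sided, Benjamini-Hochberg) in the libraries of each comparison, for genes above 1 RPKM in at least 4 of them. Fold changes on this scale understate those of low genes. Errors after ± are SE for fold changes and SD for levels. Genes were called at an adjusted p under 0.05 or by the criteria of the study, whose p was taken as unadjusted. Single genes were also tested by exact two-sided permutation (scipy 1.17.1), whose smallest p is 0.0286. Without the block, and in the exact tests, the p-values measure the spread between libraries of a treatment over these 4 preparations and ignore their pairing. With the block they measure the spread of the differences within preparations.

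The preparation numbers pair the libraries, since parallel cultures of 1 preparation received the 4 treatments. Deviations of same-numbered libraries from their group means correlated at 0.486 to 0.721 for the virus, 0.646 to 0.821 for JNK-IN-8 with Ad-Cre, 0.127 to 0.827 for JNK-IN-8 with Ad-LacZ, and 0.159 to 0.663 for the virus under inhibitor, beside means of -0.23 to -0.129 for other pairs. A blocked fit (block: preparation) is given where it changed a call.

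The 10 genes and the lists were chosen with earlier results of these data known. Text names the 10, listed p53 targets and regulators past the test with or without the block (at most 10 per list and comparison), the 5 qPCR genes outside the 10, Hspa5, Jun and the 5 genes most correlated with Cdkn1a and with Mdm2. Promoter windows came from RefSeq (GRCm38.p6). The exact tests against Cdkn1a, the promoter search, the shares of variation, the order of levels, the means of the 5 qPCR genes without M2 and the fits without the F2 library of Ad-Cre with inhibitor were added after seeing the data. The scaling, filter and unblocked fit were also tested on simulated data for the virus comparison (11590 genes, 200 of them changed 2-fold). The simulated noise was independent between libraries, with no preparation effect, unlike the paired libraries here. Of 194 tested, 74.2% were recovered, with 5.88% false calls and 0 calls where nothing was changed. The blocked fits, exact tests, differences from Cdkn1a and interaction were not part of this check. Alternatives varied the pseudocount (0.1), filter (none or 0.1 RPKM), scaling, block, joint fit and omission of each preparation.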

Additional observations from a re-analysis of the deposited data

Results flagged for a closer look

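Among 40 groups of 4 libraries (10 genes in 4 treatments), 3 had a library far from the others by Dixon's test, where chance gives about 1 in 20. Phlda3 was at 28.1 RPKM in M2 with Ad-LacZ, and the nearest library was at 11.5 RPKM. Aen was at 11.8 RPKM in F2 with Ad-Cre and inhibitor, the shallow library with the different column prefix, and the nearest was at 10.2 RPKM. Ei24 was at 18.3 RPKM in F1 with Ad-LacZ and inhibitor, and the nearest was at 19.7 RPKM.

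In 3 of 40 pairs of gene and comparison, both preparations labelled F moved in the same direction and both labelled M in the opposite direction. The difference was not tested, and the count was not compared with the number that chance gives. No dependence on sex was therefore read from it. For Mdm2 under the virus the mean change in F minus that in M was -0.15 on the log2 scale (F1 -0.02 and F2 -0.09, M1 0.06 and M2 0.12). These single changes were all small, at -0.09 to 0.12. For Mdm2 with the inhibitor in Ad-Cre cultures the difference was -0.36 (F1 -0.04 and F2 -0.03, M1 0.10 and M2 0.54). For Phlda3 in the same comparison it was 0.76 (F1 0.11 and F2 0.09, M1 -0.06 and M2 -1.26). With the inhibitor, the differences of Mdm2 and Phlda3 came mostly from M2, and the other preparations lay between -0.06 and 0.11.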

How the results depend on the processing

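The rise of Cdkn1a with Ad-Cre passed the test under every alternative run (1.54 to 1.91, adjusted p up to 0.0311). Of 1036 values under an alternative, 927 kept their direction and side of the threshold or, for counts, stayed equal or within 1.5 times. Of the others, 43 (in 24 results) changed sign, 20 lost and 8 gained a call, and 38 counts moved by over 1.5 times. Every value that changed sign had a reported size under 1 SE and no call. With 4 libraries a group and Mdm2 or Phlda3 spread widely between preparations, differences inside the 95% intervals could not be detected, and the F2 library at 7600000 reads limits the comparisons with Ad-Cre and inhibitor. Except where stated, the cause was not tested.

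Since the preparations pair the libraries, the block raised the calls for the virus from 1920 to 3979 genes and from 3 to 5 of the 10 p53 genes. For the inhibitor in Ad-Cre cultures it raised them from 0 to 739 genes, by the criteria of the study from 911 to 2192, and for differences from Cdkn1a from 0 to 4 of 9. For the inhibitor in Ad-LacZ cultures it raised them from 22 to 39 genes and by the criteria from 556 to 967, and for the interaction by the criteria from 133 to 481. By the criteria of the study the block raised the calls among the 10 from 1 to 2 for the virus and from 1 to 2 for the inhibitor in Ad-Cre cultures. Beside these and the calls named in the report, it changed no other call of the 10.

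With a pseudocount of 0.1 the inhibitor in Ad-Cre cultures called 3 genes, and with all 16 libraries in 1 fit it called 58, and 11 in Ad-LacZ cultures. In Ad-LacZ cultures 6 genes were called with no filter, 14 with a filter at 0.1 RPKM and 7 in RPKM as deposited. With no filter, 2 of 9 differences from Cdkn1a passed in Ad-Cre cultures (Trp53, adjusted p = 0.0339, and Aen, 0.0487). In RPKM as deposited 1463 genes met the criteria in Ad-Cre cultures, and quantile normalization called 1 gene for the interaction. Leaving out the F2 library with Ad-Cre and inhibitor gave 1440 genes (2395 with it) and 1 of the 10 (3 with it) for the virus under inhibitor, and turned the inhibitor values of Trp53inp1 to -0.17 and Zmat3 to -0.027.

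In RPKM as deposited the inhibitor values in Ad-Cre cultures turned for Mdm2 (-0.0071), Trp53inp1 (-0.13), Zmat3 (-0.11) and Ei24 (-0.090), the virus values under inhibitor for Mdm2 (-0.012) and Ei24 (-0.038), and the interactions of Trp53 (-0.12), Mdm2 (-0.047), Cdkn1a (-0.016), Ccng1 (-0.014) and Ei24 (-0.071). Under quantile normalization the inhibitor values of Trp53inp1 (-0.0077) and Sesn1 (0.029) turned in Ad-Cre cultures, as did the differences from Cdkn1a of Mdm2 (0.021) and Ccng1 (0.021) and the interactions of Cdkn1a (-0.12), Ccng1 (-0.036) and Zmat3 (0.014).

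Leaving out each preparation, with fewer libraries in each fit, gave 169 (without F2) to 904 (without M2) genes for the virus and 1 to 3 of the 10. It gave 386 to 1222 genes by the criteria for the inhibitor in Ad-Cre cultures, 1 to 3 genes for the inhibitor in Ad-LacZ cultures, 323 (without F2) to 3235 (without M2) genes and 1 to 2 of the 10 for the virus under inhibitor, and 47 to 444 genes by the criteria for the interaction. Signs turned within these ranges: for the virus, Mdm2 (-0.019 to 0.053) and Ei24 (-0.022 to 0.051); for the inhibitor in Ad-Cre cultures, Phlda3 (-0.41 to 0.047), Aen (-0.077 to 0.0063), Trp53inp1 (-0.036 to 0.094), Zmat3 (-0.021 to 0.050), Sesn1 (-0.056 to 0.019) and Ccng1 minus Cdkn1a (-0.18 to 0.067). In Ad-LacZ cultures they turned for Mdm2 (-0.077 to 0.16), Phlda3 (-0.11 to 0.50), Aen (-0.0082 to 0.13), Zmat3 (-0.015 to 0.095) and Ei24 (-0.045 to 0.020), for the virus under inhibitor for Mdm2 (-0.066 to 0.31), and for the interaction for Trp53 (-0.092 to 0.12), Mdm2 (-0.047 to 0.28), Ccng1 (-5.46e-05 to 0.34) and Zmat3 (-0.057 to 0.0087).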
